A study of Mus musculus with 10 samples.

Results

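Complement is a cascade of secreted proteins that marks targets for removal and calls in immune cells. In its classical branch, C1q binds a target and activates the proteases C1r and C1s, which cut C4 and C2, and the enzyme formed in this way cuts C3. Fragments of C3 stay on the target, where integrin receptors of phagocytes bind them, while the released peptides C3a and C5a act through receptors on myeloid cells. Microglia, the resident macrophages of the brain, are its main source of C1q, and complement on synapses and around amyloid plaques has been studied in development and in mouse models of Alzheimer's disease. The genes described here are 8 of the 24421 gene symbols measured, chosen by name. C1qa, C1qb and C1qc encode the chains of C1q, C4b and C3 encode the components cut in turn, C3ar1 and C5ar1 encode the receptors of C3a and C5a, and Serping1 encodes the C1 inhibitor, which inactivates C1r and C1s.

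Expression was measured by RNA sequencing of cortical cell fractions, which the study calls microglia, of 3 groups of mice aged 9 months. The groups were WT (n = 3 libraries, each the sequenced RNA of a pool of 2 mice), APP/PS1 (n = 4) and a group of APP/PS1 mice that received N-AS, N-acetyl sphingosine (n = 3). APP/PS1 mice over-express human APP with the Swedish mutation together with a further mutant transgene, and the promoters of these transgenes are not named in the sources used here. N-AS was given under the skin at 30 mg/kg every day for 8 weeks, starting at 7 months of age, and the study's text describes the APP/PS1 mice compared with these as given vehicle, which the sample labels do not state. Cells were released from cortex with papain and separated on a density gradient. The total counts were 8805804, 17102559 and 19133654 in the WT libraries, and 12971720, 12474941, 13129332 and 19432075 in the APP/PS1 libraries. With N-AS they were 16500725, 19035817 and 12755933. All 8 genes passed the filter on low counts, and the lowest count of any of them in a library was 66, for C3 in WT replicate 1. Expression is given as CPM, the count of a gene over the library size, which the TMM method adjusts for differences in RNA composition. Fold changes are on the log2 scale with their standard error (SE). The libraries are numbered from 1 to 10, and numbers 1 to 6 are the first pairs of replicates in the 3 groups, while 7 to 10 are the others. Neither the labels nor the methods say that libraries of a set were handled together, and differences are also given within each set.

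The libraries were first checked against their labels. The summed level of 14 microglial marker genes was 804, 917 and 1188 CPM in the WT libraries, with 0 of the 14 markers at 0 in any library. It was 2302, 2412, 2956 and 2517 CPM in the APP/PS1 libraries and 1753, 1913 and 1511 CPM in the N-AS libraries. Microglial transcripts were thus present throughout, and their share of the RNA was larger in each of the APP/PS1 libraries than in any WT or N-AS library. Markers of other cell types were detected in each library as well. Neuronal markers (10 of 10, led by Snap25) summed to 1705, 2002 and 5476 CPM in WT, 2550, 2368, 2209 and 2641 CPM in APP/PS1 and 2290, 2260 and 3189 CPM with N-AS. Oligodendrocyte markers (10 of 10) summed to 6623, 6722 and 2376 CPM in WT, 4621, 4092, 1875 and 1917 CPM in APP/PS1 and 3755, 3815 and 2818 CPM with N-AS. WT replicate 3 therefore stood apart from the other WT libraries, with more neuronal and less oligodendrocyte RNA. Endothelial markers (10 of 10, led by Flt1) were at 583 CPM in that library and between 1092 and 1558 CPM in the other 9. Choroid plexus markers (8 of 8, led by Enpp2) were at 227 CPM in WT replicate 3 and 220.1 CPM in N-AS replicate 3, against 1071 to 2176 CPM elsewhere.

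Genes of the sex chromosomes and of the transgenes were read in the same way. Xist, an RNA made by the inactive X chromosome in females, was at 4.40, 2.29 and 1.59 CPM in the WT libraries and at 453, 482, 579 and 533 CPM in the APP/PS1 libraries. It was at 463, 469 and 2.14 CPM in the N-AS libraries, so that replicate 3 had the Xist level of the WT libraries. Ddx3y, a gene of the Y chromosome, was at 70.1, 73.2 and 69.0 CPM in WT, at 17.5, 26.8, 0.478 and 0.476 CPM in APP/PS1 and at 13.6, 19.0 and 73.4 CPM with N-AS. Eif2s3y, Kdm5d and Uty had the same pattern, with Kdm5d at 47.4, 49.5 and 47.0 CPM in WT, 10.3, 12.7, 0 and 0 CPM in APP/PS1 and 5.86, 11.3 and 42.0 CPM with N-AS. The methods of the study state that only males were used, and these transcripts go against that statement for the APP/PS1 libraries and for N-AS replicates 1 and 2. Genotype and sex-linked transcripts cannot be told apart in the comparison of APP/PS1 with WT. App was at 1406, 1707 and 1753 CPM in WT and at 1394, 1235, 1068 and 1300 CPM in APP/PS1, and was therefore lower in each of these APP/PS1 libraries than in any WT library. With N-AS it was at 1371, 1350 and 1512 CPM, which overlapped WT. Prnp, whose promoter is used in some such lines, averaged 1505 CPM in WT and 1237 CPM in APP/PS1 and overlapped. Thy1, whose promoter is used in others, was at 66.7, 84.1 and 225 CPM in WT, at 470, 396, 329 and 362 CPM in APP/PS1 and at 405, 404 and 631 CPM with N-AS. It rose by 1.63 ± 0.39 from WT to APP/PS1 (SE, edgeR adjusted p = 0.0464). Whether reads of the human transgenes were counted under mouse symbols is not given in the sources used here.

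The 8 genes lie on 5 mouse chromosomes, all of them on the minus strand in the GENCODE M21 annotation of build GRCm38, the build that the submitters' processing notes name as mm10. The C1q genes form a cluster with C1qb at chr4:136880129-136886187, C1qc at chr4:136889804-136893065 and C1qa at chr4:136895917-136898803, and each has 3 exons. C4b (chr17:34728380-34743882) and its paralog C4a (chr17:34809092-34823464) are neighbours in the major histocompatibility region, with 41 exons each in the longest transcript. C3 also has 41 exons and lies on the same chromosome, at chr17:57203970-57228136, with the microRNA gene Mir6978 inside it on the same strand. C3ar1 is at chr6:122847138-122856161 and C5ar1 at chr7:16246743-16259540, with 2 exons each, and Serping1 is at chr2:84765387-84775444 with 8 exons. In the C4 pair, 871 of the 5280 windows of 100 bases in the longest C4b transcript (16.5%) were identical to C4a, so that reads there could have been counted for either gene and both values are uncertain. The 3 C1q transcripts shared 0 such windows with each other.

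Levels were compared between genes per length, as CPM per kilobase of exon. In the WT libraries, C1qb was at 34.9 ± 9.12 and C1qa at 34.3 ± 12.3 CPM per kilobase (SD, n = 3), and these levels did not differ beyond their spread. C1qc followed at 20.6 ± 5.96 CPM per kilobase, and its libraries overlapped those of C1qa. The levels of C4b (8.00 ± 4.67 CPM per kilobase), Serping1 (6.41 ± 2.36), C3ar1 (4.33 ± 0.287) and C5ar1 (3.03 ± 2.23) lay below those of the C1q chains, and each overlapped its neighbour in this order. C3 was the lowest of the 8 in WT, at 1.28 ± 0.216 CPM per kilobase. In the APP/PS1 libraries the level of C1qa was 196 ± 60.1, that of C1qb 183 ± 41.7 and that of C1qc 99.3 ± 19.5 CPM per kilobase (SD, n = 4). C1qa and C1qb again overlapped, while every library of C1qc lay below those of C1qb. Per kilobase of the longest transcript in place of all exons, the level of C1qc was 159.5 CPM in APP/PS1 and 33.0 CPM in WT, closer to that of C1qb but still below it on average. C4b (17.1 ± 3.73 CPM per kilobase) and C3ar1 (14.4 ± 0.802) overlapped each other in APP/PS1, as did Serping1 (6.33 ± 1.12), C5ar1 (4.88 ± 1.41) and C3 (4.80 ± 2.85) further down. With N-AS the order was C1qa at 102.5 ± 29.4, C1qb at 101 ± 27.9, C1qc at 56.6 ± 11.9, C4b at 13.5 ± 4.58 and C3ar1 at 9.45 ± 1.74 CPM per kilobase (SD, n = 3). Serping1 came next at 6.55 ± 0.889 CPM per kilobase, then C5ar1 at 3.26 ± 0.504 and C3 at 1.40 ± 0.254, and C5ar1 and C3 overlapped neither each other nor Serping1. On average C3ar1 thus stood below Serping1 in the WT group and above it in both transgenic groups, with libraries that overlapped in WT and with N-AS but not in APP/PS1.

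**Figure D1:**
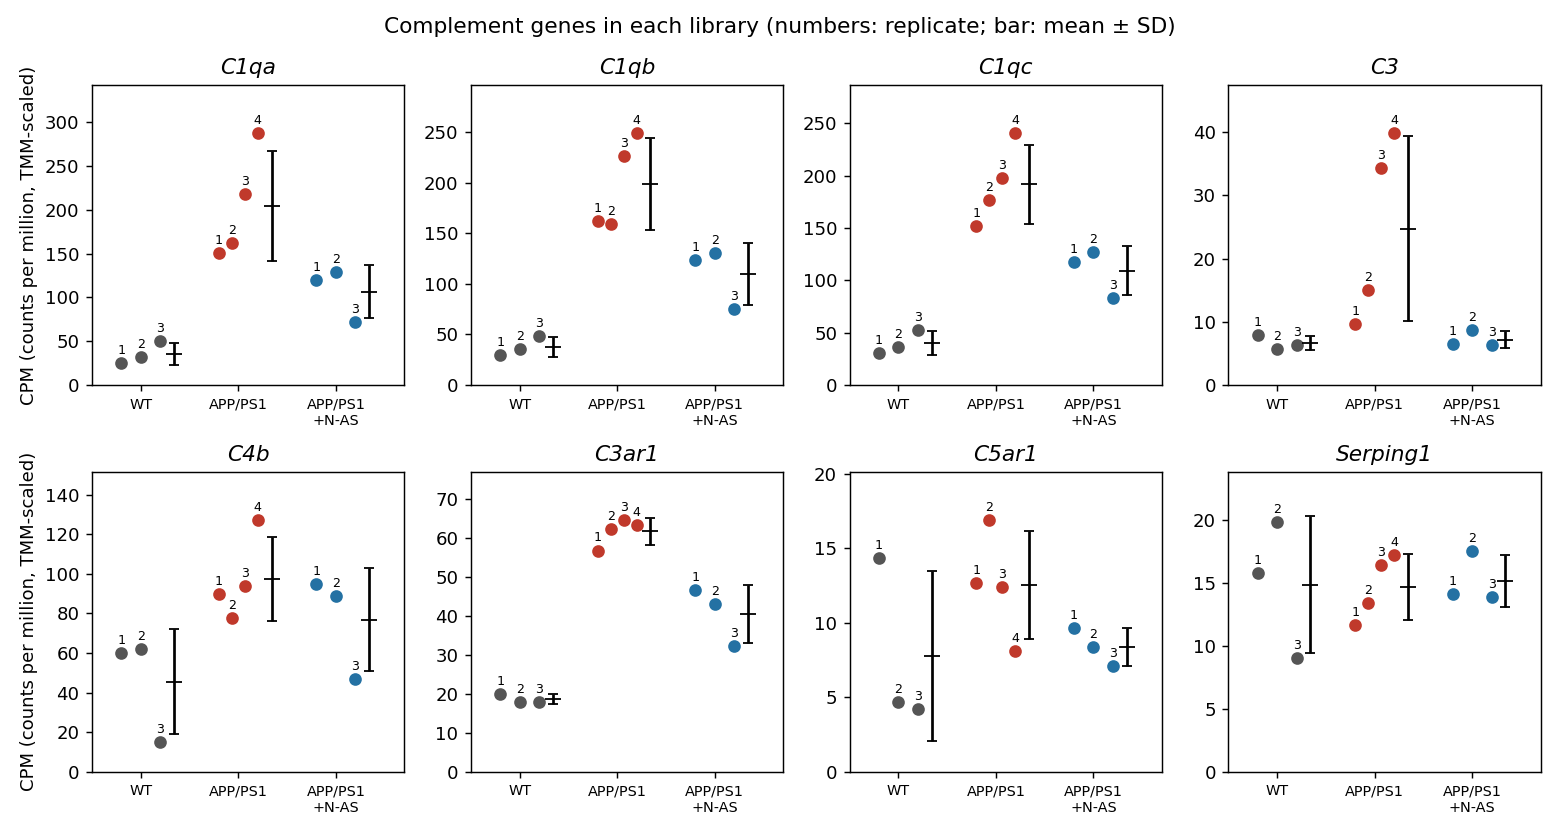
Expression of the 8 complement genes in CPM in each WT (n = 3), APP/PS1 (n = 4) and N-AS (n = 3) library, with replicates as numbered points and mean ± SD as bars. The C1q chains, C3 and C3ar1 lie higher in each APP/PS1 library than in any library of the other groups, and Serping1 overlaps among all groups.

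The comparison of APP/PS1 with WT libraries asked how gene expression in these mixed fractions differs in the amyloid model. The chains of C1q, which start the classical branch, were 4.81- to 5.71-fold higher in APP/PS1, C3, the component on which all branches meet, was 3.79-fold higher, and C3ar1, the receptor of its peptide C3a, was 3.32-fold higher. These 5 of the 8 genes rose at an adjusted p under 0.05 in edgeR's quasi-likelihood test, two-sided and adjusted by the Benjamini-Hochberg method over 18727 genes. Of all genes tested, 2.67% were called higher in APP/PS1 and 3.47% in either direction. C4b was higher in each APP/PS1 library than in any WT library but did not pass the test, and C5ar1 and Serping1 overlapped between the groups. Libraries did not overlap, with APP/PS1 higher, for 6 of the 8 genes and for 8.15% of all genes tested. The median log2 fold change was 1.83 over the 8 genes and −0.07 over all genes tested.

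C1qa, which encodes the A chain, was at 25.3, 31.6 and 50 CPM in the WT libraries and at 150.2, 162, 218 and 287 CPM in the APP/PS1 libraries. Its lowest APP/PS1 library lay far above the highest WT library, WT replicate 3. The mean level was 204 ± 62.5 CPM (SD, n = 4) against 35.7 ± 12.8 CPM (SD, n = 3), a log2 fold change of 2.51 ± 0.33 (SE, 95% confidence interval 1.79 to 3.23, edgeR adjusted p = 0.00255). C1qb, the B chain, was at 29.4, 35.6 and 48.8 CPM in WT and at 162, 159, 226 and 249 CPM in APP/PS1. As for C1qa, APP/PS1 replicates 3 and 4 were the highest, and the groups did not overlap. This was a log2 fold change of 2.39 ± 0.27 (SE, 95% confidence interval 1.79 to 2.99, edgeR adjusted p = 0.00119). C1qc, the C chain, was at 30.4, 36.2 and 52.6 CPM in WT and at 152, 177, 198 and 241 CPM in APP/PS1. Again every APP/PS1 library lay above every WT library, and replicate 4 was the highest for all 3 chains. The log2 fold change of C1qc was 2.27 ± 0.25 (SE, 95% confidence interval 1.72 to 2.81, edgeR adjusted p = 0.000919). Within library numbers 1 to 6 the log2 fold changes of C1qa, C1qb and C1qc were 2.42, 2.27 and 2.26, and within 7 to 10, which hold 1 WT library, they were 2.34, 2.29 and 2.07.

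The 3 chains take equal parts in the C1q protein, and each made up a similar part of their summed counts, with differences between libraries beyond counting error. Per kilobase of all annotated exons the parts were not similar, with 36.3 to 43.8% for C1qa, 36.4 to 40.2% for C1qb and 19.7 to 23.9% for C1qc. This depends on the length used for C1qc, which is 1931 bases of exon but 1203 in its longest transcript. For C1qa and C1qb the lengths are the same. Per kilobase of the longest transcript C1qa, C1qb and C1qc averaged 34.3, 34.9 and 33.0 CPM in WT. In APP/PS1 they averaged 196, 183 and 159.5 CPM by that measure. C1qa made up 29.7%, 30.6% and 33.0% of the C1q counts in the WT libraries, 32.4%, 32.6%, 33.9% and 36.9% in the APP/PS1 libraries and 33.2%, 33.3% and 31.2% with N-AS. The highest share, in APP/PS1 replicate 4, had an exact binomial 95% interval of 36.2 to 37.7%, and the lowest, in WT replicate 1, one of 26.4 to 33.3%. C1qc had shares of 30.8 to 36.3% over the 10 libraries, and those of C1qb ran from 32.0 to 35.2%. These intervals cover counting error only.

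C4b and C3 encode the components on which the proteases act. C4b was at 59.9, 61.85 and 14.85 CPM in the WT libraries and at 89.9, 77.8, 93.7 and 127 CPM in the APP/PS1 libraries. WT replicate 3 was far lower than the other WT libraries, and the groups did not overlap. C4b averaged 45.5 ± 26.6 CPM (SD, n = 3) for WT against 97.2 ± 21.3 CPM (SD, n = 4) for APP/PS1, with a log2 fold change of 1.10 ± 0.43 (SE, 95% confidence interval 0.15 to 2.05, edgeR adjusted p = 0.216). It came to 0.43 within library numbers 1 to 6 and 2.91 within 7 to 10, where WT replicate 3 is the WT library, and it was 0.69 without that replicate. C3 was at 7.84, 5.70 and 6.27 CPM in WT and at 9.67, 15.0, 34.3 and 39.9 CPM in APP/PS1. All APP/PS1 libraries were above the WT libraries, but replicates 3 and 4 were far higher than replicate 1, which was close to the WT range. C3 rose from 6.60 ± 1.11 CPM (SD, n = 3) to 24.7 ± 14.7 CPM (SD, n = 4), a log2 fold change of 1.92 ± 0.44 (SE, 95% confidence interval 0.95 to 2.89, edgeR adjusted p = 0.0396). Within library numbers 1 to 6 C3 was higher by 0.84 (edgeR adjusted p = 0.142), and within 7 to 10 it was 2.58. The call of C3 was lost in edgeR without WT replicate 1, 2 or 3 (adjusted p = 0.092, 0.118 and 0.0736), APP/PS1 replicate 3 or 4 (0.0998 and 0.0918) and N-AS replicate 1 or 2 (0.067 and 0.0569), and with quantile normalization in limma-voom (0.092) or total counts in edgeR (0.0508). It was also lost in edgeR with the replicate block (0.118) and in a fit of only the groups compared (0.0898).

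The receptors differed from each other. C3ar1, through which C3a acts on myeloid cells, was at 20.1, 17.95 and 17.9 CPM in the WT libraries and at 56.9, 62.3, 64.8 and 63.4 CPM in the APP/PS1 libraries. Libraries within a group were close together, with SDs of log2 CPM of 0.09 in WT and 0.08 in APP/PS1, and the groups lay far apart. C3ar1 rose from 18.7 ± 1.24 CPM (SD, n = 3) to 61.8 ± 3.45 CPM (SD, n = 4), a log2 fold change of 1.73 ± 0.14 (SE, 95% confidence interval 1.41 to 2.05, edgeR adjusted p = 0.000379). Library numbers 1 to 6 alone gave 1.62 and 7 to 10 gave 1.85. C5ar1, the receptor of the chemoattractant C5a, was at 14.4, 4.705 and 4.24 CPM in WT and at 12.7, 16.9, 12.4 and 8.09 CPM in APP/PS1. WT replicate 1 lay among the APP/PS1 libraries, and the other WT libraries lay below them all. The mean of C5ar1 was 12.5 ± 3.61 CPM (SD, n = 4) against 7.78 ± 5.73 CPM (SD, n = 3), a log2 fold change of 0.73 ± 0.40 (SE, 95% confidence interval −0.16 to 1.62, edgeR adjusted p = 0.402). Without WT replicate 1 the log2 fold change was 1.48 and passed the test (edgeR adjusted p = 0.0349), the range over all alternatives tested being 0.0349 to 0.644. Neutrophils also carry this receptor, and their markers (7 of 8 in the files, led by Cxcr2) summed to 122.5 CPM in WT replicate 1 and 163 CPM in APP/PS1 replicate 3, against 47.2 to 61.6 CPM in the other 8 libraries. Cxcr2 alone was at 110.9 CPM in WT replicate 1, and without it the sum was 11.65 CPM there, 98.4 CPM in APP/PS1 replicate 3 and 4.53 to 18.45 CPM elsewhere. APP/PS1 replicate 3 was thus the only library with a high level of the remaining markers. The part of neutrophil RNA in the C5ar1 level was not tested.

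Serping1, the inhibitor at the entry of the classical branch, was at 15.8, 19.9 and 9.02 CPM in the WT libraries and at 11.65, 13.5, 16.5 and 17.2 CPM in the APP/PS1 libraries. The APP/PS1 libraries lay inside the WT range. Its means were 14.7 ± 2.60 CPM (SD, n = 4) and 14.9 ± 5.49 CPM (SD, n = 3), with a log2 fold change of −0.01 ± 0.25 (SE, 95% confidence interval −0.56 to 0.54, edgeR adjusted p = 0.989). The interval includes changes in both directions. In library numbers 1 to 6 alone Serping1 differed by −0.55, and in 7 to 10 by 0.91. Summed C1q was 5.38, 5.21 and 16.8 times the Serping1 level in the WT libraries and 39.8, 37.0, 38.9 and 45.1 times that level in the APP/PS1 libraries, both in CPM. This ratio did not overlap between the groups, and WT replicate 3, with the lowest Serping1, had the highest ratio in WT.

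**Figure D2:**
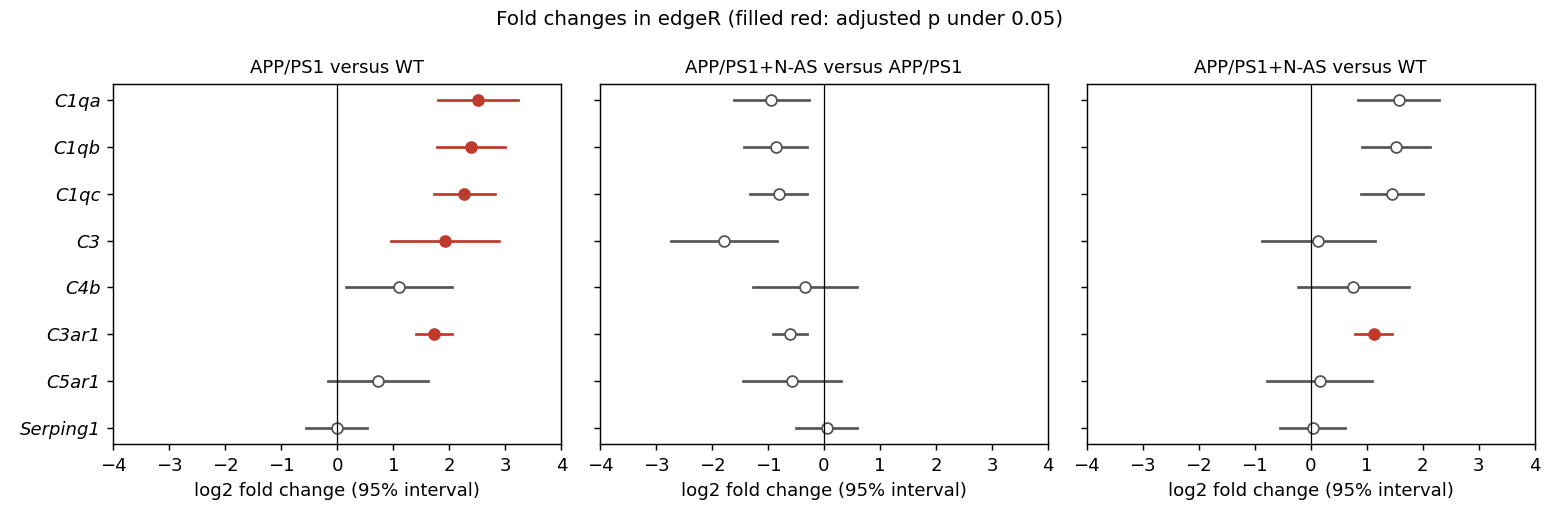
Log2 fold change of each of the 8 complement genes in the 3 comparisons, with unadjusted 95% confidence intervals from edgeR. Red filled points mark an adjusted p under 0.05, which C1qa, C1qb, C1qc, C3 and C3ar1 had for APP/PS1 against WT and C3ar1 also for N-AS against WT.

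Marker lists of other cell types were compared as well. All 10 oligodendrocyte markers were lower in APP/PS1 than in WT (median log2 fold change −1.30), and edgeR called 3 of them, DESeq2 7 and limma-voom 3. The 8 choroid plexus markers were all higher (median 1.05), with 1 of them at an unadjusted p under 0.05, while edgeR, DESeq2 and limma-voom each called 0. Cell share and expression per cell cannot be told apart in these lists, and their part in the levels of the 8 genes was not tested. Since the microglial share of the RNA differed too, each gene was set against the mean log2 CPM of the 14 microglial markers in the same library. In bulk samples, fewer cells of a type and less RNA per cell cannot be told apart, and marker genes can change in expression themselves. The markers were higher in APP/PS1 than in WT by 1.24 on the log2 scale (p = 0.0286 by exact two-sided permutation, the minimum for 4 against 3 libraries), and 10 of the 14 were called higher by edgeR, with a median log2 fold change of 1.39. Relative to the markers, the log2 differences were 1.29 for C1qa, 1.15 for C1qb, 1.05 for C1qc and 0.48 for C3ar1. Each of these had an exact permutation p of 0.0286 and an adjusted p of 0.171 over the 24 such tests, so that none of them passed 0.05. Tests of 3 against 3 libraries, with a smallest possible p of 0.1, could not pass. The others, with a smallest possible p of 0.0286, could pass only if most of them were at that minimum. No conclusion is therefore drawn from the lack of a pass. For C3 and C4b the relative differences were 0.43 (exact permutation p = 0.486) and 0.09 (p = 0.971). C5ar1 was at −0.37 (exact permutation p = 0.686) and Serping1 at −1.20 (p = 0.0571) by the same measure. Against the pan-myeloid markers Csf1r, Aif1 and Ptprc alone, C1qa was higher by 0.79 and C1qb by 0.66 (exact permutation p = 0.0286 for both), C1qc was higher by 0.55 (exact permutation p = 0.0571) and C3ar1 was at −0.01. Serping1 was at −1.69 against that list (exact permutation p = 0.0286). The excess of the C1q chains over the markers was thus larger than that of C3ar1 with either list, without a test of this difference.

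Astrocytes are a known source of C3 and C4b, and their markers (10 of 10, led by Slc1a2, with 0 of them at 0) were summed beside these genes. The sums were 2349, 2477 and 2768 CPM in WT, 2545, 2630, 4052 and 3628 CPM in APP/PS1 and 2377, 2436 and 3470 CPM with N-AS. The libraries with high sums were APP/PS1 replicates 3 and 4, which were also the highest for C3, and N-AS replicate 3, in which C3 was low. Without Gfap the sums of these libraries were 3152, 2704 and 3394 CPM, that of WT replicate 3 was 2757 CPM, and those of APP/PS1 replicates 1 and 2 were 2046 and 2013 CPM. Gfap, the intermediate filament gene of reactive astrocytes, was at 15.6, 17.6 and 10.9 CPM in WT and at 499, 617, 899.8 and 923 CPM in APP/PS1. It rose by 5.65 on the log2 scale (edgeR adjusted p = 0.000545), and 1 of the 10 astrocyte markers was called, with a median log2 fold change of −0.15 for the list. Border macrophage markers (10 of 10, led by Mrc1) summed to 57.9, 43.1 and 31.8 CPM in WT, 28.7, 31.0, 59.5 and 52.2 CPM in APP/PS1 and 25.2, 32.2 and 55.1 CPM with N-AS. Meningeal fibroblast markers (8 of 8, led by Col1a2) were at 567 CPM in APP/PS1 replicate 3 and at 142 to 237 CPM in the other libraries. Monocyte markers (7 of 7, led by F10, with Plac8 at 0 in N-AS replicates 1 and 3) ran from 56.0 to 154 CPM, and pericyte markers (5 of 5, led by Rgs5) from 156 to 273 CPM. The part of these cell types in the levels of C3, C4b and Serping1 was not tested.

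**Figure D3:**
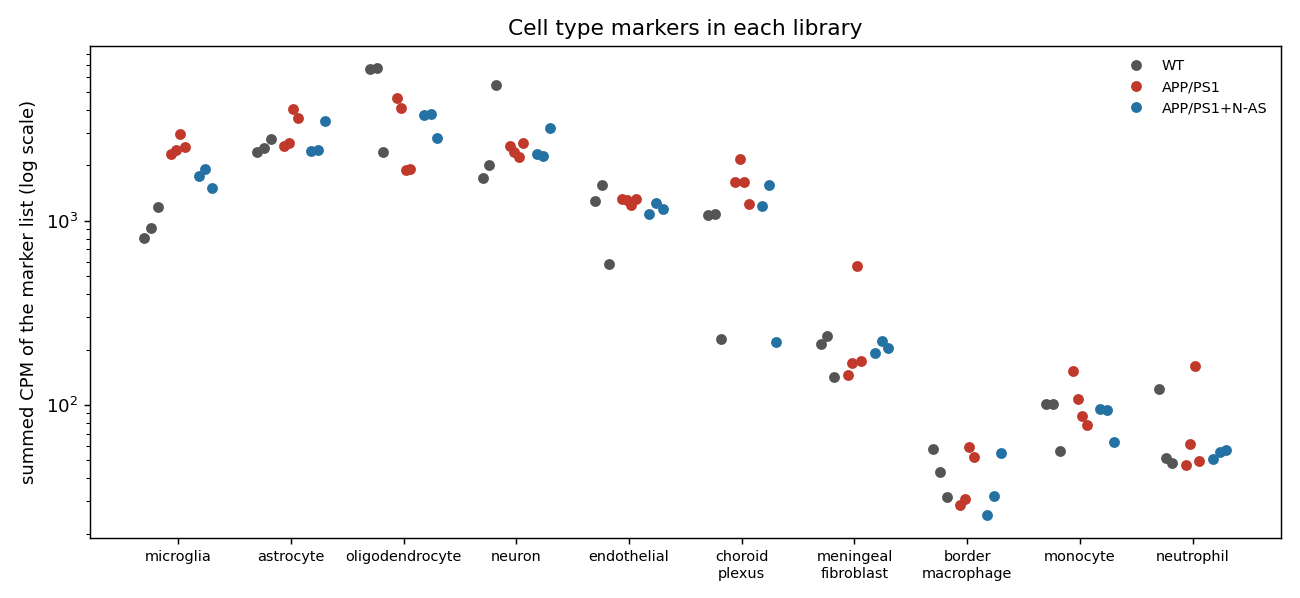
Summed CPM of the marker genes of 10 cell types in each library, on a logarithmic axis, with points for the replicates of the 3 groups. Microglial markers are higher in the 4 APP/PS1 libraries than in the others, and choroid plexus markers are low in WT replicate 3 and N-AS replicate 3.

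The comparison of N-AS-injected with other APP/PS1 mice asked what the lipid changes in the disease model. The C1q chains were 1.76- to 1.92-fold lower with N-AS, C3 was 3.44-fold lower and C3ar1 was 1.52-fold lower, and for these 5 genes every N-AS library lay below every APP/PS1 library. None of the 8 genes had an adjusted p under 0.05 in edgeR's quasi-likelihood test, in which 0 of 18727 genes (0%) passed. Before adjustment, 1653 genes (8.83%) had p under 0.05 in edgeR, of which 758 (4.05%) were lower with N-AS, and these included the same 5 of the 8 genes. Libraries did not overlap, with N-AS lower, for 5 of the 8 genes and for 6.46% of all genes tested. DESeq2 called 73 genes, among them C3 (adjusted p = 0.0158) and C3ar1 (adjusted p = 0.0201), while limma-voom called 0. The median log2 fold change was −0.71 over the 8 genes and −0.01 over all genes tested. C4b, C5ar1 and Serping1 overlapped between the groups.

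In the N-AS libraries C1qa was at 119.5, 129 and 71.7 CPM, where the lowest APP/PS1 library had 150.2 CPM. Its mean was 107 ± 30.6 CPM (SD, n = 3) against 204 ± 62.5 CPM (SD, n = 4), a log2 fold change of −0.94 ± 0.30 (SE, 95% confidence interval −1.61 to −0.27, edgeR adjusted p = 0.497). C1qb was at 123, 130.5 and 74.6 CPM with N-AS, below the lowest APP/PS1 level of 159 CPM. The log2 fold change of C1qb was −0.86 ± 0.26 (SE, 95% confidence interval −1.43 to −0.30, edgeR adjusted p = 0.494). C1qc was at 117.5, 127 and 83.3 CPM with N-AS, and the lowest APP/PS1 library had 152 CPM. The difference in log2 was −0.81 ± 0.23 (SE, 95% confidence interval −1.32 to −0.30, edgeR adjusted p = 0.494). For each chain, N-AS replicate 3 was the lowest of the N-AS libraries. This is also the library with few Xist reads and few choroid plexus transcripts. Within library numbers 1 to 6 the log2 fold changes of C1qa, C1qb and C1qc were −0.34, −0.35 and −0.43, and within 7 to 10, which hold only that N-AS library, they were −1.83, −1.68 and −1.41. Without N-AS replicate 3 they were −0.71, −0.64 and −0.64.

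C4b, the component cut by C1s, was at 94.8, 88.95 and 47.0 CPM with N-AS. Replicates 1 and 2 lay within the APP/PS1 range and replicate 3 below it. C4b differed by a log2 fold change of −0.34 ± 0.42 (SE, 95% confidence interval −1.26 to 0.59, edgeR adjusted p = 0.856). In library numbers 1 to 6 alone C4b differed by 0.12, and in 7 to 10 by −1.25. C3 was at 6.52, 8.69 and 6.35 CPM with N-AS, all below the 9.67 CPM of the lowest APP/PS1 library and close to the WT levels. Its mean was 7.19 ± 1.31 CPM (SD, n = 3) against 24.7 ± 14.7 CPM (SD, n = 4), a log2 fold change of −1.78 ± 0.43 (SE, 95% confidence interval −2.74 to −0.83, edgeR adjusted p = 0.494). The difference rested largely on APP/PS1 replicates 3 and 4, with −0.70 within library numbers 1 to 6 and −2.56 within 7 to 10.

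C3ar1, the C3a receptor, was at 46.65, 43.05 and 32.3 CPM with N-AS. The highest of these was below the lowest APP/PS1 library, at 56.9 CPM, and the lowest was above all WT libraries. The mean was 40.7 ± 7.47 CPM (SD, n = 3) against 61.8 ± 3.45 CPM (SD, n = 4), a log2 fold change of −0.60 ± 0.14 (SE, 95% confidence interval −0.91 to −0.30, edgeR adjusted p = 0.478). Within library numbers 1 to 6 it was −0.42 and within 7 to 10 it was −1.0. C5ar1 was at 9.685, 8.38 and 7.09 CPM with N-AS. The first pair of these lay above the lowest APP/PS1 library, at 8.09 CPM, and the log2 fold change was −0.57 ± 0.40 (SE, 95% confidence interval −1.45 to 0.30, edgeR adjusted p = 0.703). Serping1 was at 14.2, 17.6 and 13.9 CPM with N-AS, and its libraries overlapped those of APP/PS1. In log2 terms Serping1 differed by 0.05 ± 0.25 (SE, 95% confidence interval −0.50 to 0.59, edgeR adjusted p = 0.973). The ratio of summed C1q to Serping1 was 25.4, 22.0 and 16.5 with N-AS, below the 37.0 of the lowest APP/PS1 library.

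With N-AS the microglial markers, taken as a mean over the 14, were themselves lower, by −0.51 in log2 (p = 0.0286 by exact two-sided permutation, the minimum for these libraries). Of these markers, edgeR, DESeq2 and limma-voom each called 0, and 8 were lower at an unadjusted p under 0.05 in edgeR, with a median log2 fold change of −0.53. Relative to the markers, the differences in log2 were −0.42 for C1qa and −0.37 for C1qb (exact permutation p = 0.2 for both), −0.30 for C1qc (p = 0.143) and −1.04 for C3 (p = 0.2). C3ar1 was at −0.11 (exact permutation p = 0.286), so that its relative level was close to that without N-AS. Serping1 was at 0.57 (exact permutation p = 0.0571) on this scale and at 0.70 against the pan-myeloid markers (exact permutation p = 0.0286), C4b at 0.13 and C5ar1 at −0.03. Against the 14 markers none of the 8 genes passed 0.05 before adjustment, and the adjusted p over the 24 tests ran from 0.229 to 0.997 in this comparison. Gfap was at 277, 340.2 and 76.3 CPM with N-AS, or −1.67 in log2 against APP/PS1 (edgeR adjusted p = 0.494), and the summed astrocyte markers overlapped between the groups. The oligodendrocyte markers were all higher with N-AS (median log2 fold change 0.56) and the choroid plexus markers all lower (median −0.90), and edgeR, DESeq2 and limma-voom called 0 of either list, with 0 at an unadjusted p under 0.05 in edgeR.

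The comparison of N-AS-injected APP/PS1 with WT libraries asked how far the fractions of treated mice were from those of WT mice. It shares its libraries with the comparisons above, so its values are not independent of theirs. C3ar1 was 2.18-fold higher in the N-AS than in the WT libraries and was 1 of the 8 genes called by edgeR, against 0.187% of all genes called in either direction and 0.176% called higher. The C1q chains were 2.74- to 2.98-fold higher, with each N-AS library above each WT library, but did not pass the test. C3 was near its WT level, and C4b, C5ar1 and Serping1 overlapped as well. Libraries did not overlap, with N-AS higher, for 4 of the 8 genes and for 4.9% of all genes tested. The median log2 fold change was 0.95 over the 8 genes, 0.84 over the microglial markers and −0.04 over all genes tested.

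For C3ar1 the lowest N-AS library, at 32.3 CPM, stood above the highest WT library, at 20.1 CPM. The log2 fold change was 1.13 ± 0.15 (SE, 95% confidence interval 0.80 to 1.46, edgeR adjusted p = 0.0187), with 1.20 within library numbers 1 to 6 and 0.85 within 7 to 10. The call was lost in edgeR without WT replicate 1 or 2 (adjusted p = 0.0939 and 0.127), without N-AS replicate 1 or 2 (0.109 and 0.123), with the replicate block (0.0841) and in a fit of only these groups (0.229). C1qa had a log2 fold change of 1.57 ± 0.33 (SE, edgeR adjusted p = 0.136) and C1qb one of 1.53 ± 0.28 (SE, edgeR adjusted p = 0.0738). C1qc was higher by 1.46 ± 0.25 (SE, edgeR adjusted p = 0.0593), and all 3 chains were called by DESeq2 (adjusted p = 0.000741 for C1qa, 4.41e-05 for C1qb and 1.71e-05 for C1qc). In edgeR the chains also passed without N-AS replicate 3, at adjusted p = 0.0436, 0.0164 and 0.0205, and C1qb and C1qc passed without WT replicate 3, at 0.0486 and 0.037. Of the 21 alternatives with a test, C1qa passed in 3, C1qb in 5 and C1qc in 7. Library numbers 1 to 6 alone were among these for each chain. Within library numbers 1 to 6 their log2 fold changes were 2.08, 1.92 and 1.83, and within 7 to 10 they were 0.52, 0.61 and 0.66.

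The 3 WT libraries and N-AS replicate 3 share a low Xist level, and the difference among them was computed without a test, a choice made after the data had been seen. It was 1.02 for C1qa, 0.99 for C1qb, 1.08 for C1qc and 0.82 for C3ar1 on the log2 scale. These differences rest on 1 N-AS library. Against WT replicate 3 alone, the WT library of numbers 7 to 10, the C1q chains were higher by 0.52, 0.61 and 0.66. The part of sex-linked differences in the levels of these genes was not tested. Among the libraries of low Xist, C3 had a difference of −0.02 and C4b one of 0.08. Over all libraries, C3 had a log2 fold change of 0.14 ± 0.46 (SE, 95% confidence interval −0.87 to 1.15, edgeR adjusted p = 0.984), an interval that includes changes in both directions. C4b had one of 0.76 ± 0.45 (SE, edgeR adjusted p = 0.802), C5ar1 0.16 and Serping1 0.04. Relative to the microglial markers, C1qa was higher by 0.86, C1qb by 0.79 and C1qc by 0.74, and C3 had a difference of −0.61, each with an exact permutation p of 0.1, the smallest possible for 3 against 3 libraries. C3ar1 was at 0.38 (exact permutation p = 0.3) on the same scale. Against the pan-myeloid markers alone, C1qa, C1qb and C1qc were higher by 0.50, 0.42 and 0.38, and C3 was at −0.98. Each of these had an exact permutation p of 0.1, while C3ar1 was at 0.0082 against that list.

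The rest of the cascade was read from a list of 54 complement genes, of which 53 were in the files and 43 passed the filter on low counts. C1s was not matched by symbol, while C1s1 and C1s2 were. Between APP/PS1 and WT, edgeR called 3 of the 43 higher and 0 lower, and 4 were higher and 3 lower at an unadjusted p under 0.05, which was 16.3% of the list against 17.2% of all genes tested. The same 3 were called by limma-voom, and DESeq2 called Calr higher and Csmd1 lower besides. The median log2 fold change was 0.05, against 1.83 for the 8 genes. The 3 genes called encode subunits of the integrins that bind C3 fragments on targets. Itgam, the alpha chain of complement receptor 3, rose from 124 to 283 CPM (log2 fold change 1.20 ± 0.16, edgeR adjusted p = 0.00325). Itgax, the alpha chain of complement receptor 4, was at 4.28, 1.24 and 1.01 CPM in the WT libraries and at 67.3, 61.1, 83.8 and 134 CPM in the APP/PS1 libraries. It had the largest log2 fold change of the 43 genes, 5.50 ± 0.53 (SE, edgeR adjusted p = 0.000545). Itgb2, the beta chain that both receptors share, was at 12.8, 16.3 and 23.0 CPM in WT and at 69.7, 77.4, 111 and 101 CPM in APP/PS1. Its log2 fold change of 2.36 ± 0.25 (SE, edgeR adjusted p = 0.000841) was within the range of the C1q chains.

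C6, C8a and Colec10, components with means of 0.532 to 2.05 CPM, had log2 fold changes of −1.33 ± 0.90, −1.19 ± 0.96 and −1.11 ± 1.05 (SE, edgeR adjusted p = 0.507, 0.596 and 0.652), with overlapping libraries. These falls rested on WT replicate 1, at 3.57, 5.47 and 3.45 CPM. In WT replicates 2 and 3 the levels of these genes were 0.0619 to 1.01 CPM. C4a, the paralog of C4b, was at 15.9, 17.8 and 4.20 CPM in WT and at 20.1, 17.4, 17.6 and 21.6 CPM in APP/PS1. For C4a the log2 fold change was 0.62 (edgeR adjusted p = 0.499), and it was lowest in WT replicate 3, as C4b was. C4a made up 21%, 22.4% and 22.0% of the C4 counts in WT, 18.3%, 18.3%, 15.8% and 14.5% in APP/PS1 and 19.5%, 18.4% and 19.2% with N-AS. The shares in APP/PS1 were lower than in each WT library, but those of replicates 1 and 2 had intervals that overlapped those of every WT and N-AS library. The exact binomial 95% intervals were 16.2 to 20.5% for APP/PS1 replicate 1, 17.9 to 24.4% for WT replicate 1 and 16.8 to 20.2% for N-AS replicate 2. The groups were not tested for these shares. Csmd1, Csmd2 and Sez6l2, members of families with complement control domains that neurons express, were lower in each APP/PS1 library than in any WT library, with log2 fold changes of −0.59, −0.52 and −0.65 (edgeR adjusted p = 0.129, 0.182 and 0.138). Calr, which encodes calreticulin, a binding partner of C1q, was at 499.7 CPM in APP/PS1 and 380.2 CPM in WT, also without passing the test. Clu, Lrp1, Vtn, Cd59a, Cd93, Cd47, Colec12, Cr1l, Csmd3, Sez6, Sez6l and C5ar2, a further receptor of C5a, had log2 fold changes between −0.41 and 0.32 and overlapping libraries.

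With N-AS, edgeR called 0 of the 43 genes against APP/PS1, with 3 higher and 3 lower at an unadjusted p under 0.05, or 14% against 8.83% of all genes. DESeq2 called Itgam and Itgax lower and 0 higher, and limma-voom called 0. The 3 lower ones were Itgam (182 against 283 CPM, log2 fold change −0.64), Itgax (29.8 against 86.6 CPM, −1.54) and Itgb2 (49.2 against 89.8 CPM, −0.87), each with an adjusted p of 0.494 from edgeR and with groups that did not overlap. The 3 higher ones were Cfp, Csmd1 and Csmd2. Cfp, which encodes properdin, the stabilizer of the alternative convertase, was at 11.1, 9.91 and 10.9 CPM with N-AS and at 9.06, 8.10, 4.10 and 4.67 CPM in APP/PS1 (log2 fold change 0.73, edgeR adjusted p = 0.517). Csmd1 was at 237 CPM against 151 CPM (log2 fold change 0.66, edgeR adjusted p = 0.494). The median over the 43 genes was −0.11. Against WT, edgeR called Itgax alone of the 43, with a log2 fold change of 3.96 ± 0.52 (SE, edgeR adjusted p = 0.0187), and DESeq2 called Itgb2 besides, while limma-voom called Itgax only. In edgeR 4 genes were higher at an unadjusted p under 0.05 (9.3% of the list, where all genes had 6.73% in either direction). The median of the list was −0.02 in that comparison.

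The genes with the most similar pattern were sought by the root mean square difference of log2 CPM over the 10 libraries, each gene centred on its own mean, among 13212 genes with a mean of at least 5 CPM. For C1qa these were C1qb (0.11), Ctss (0.12) and C1qc (0.15), where Ctss encodes the lysosomal protease cathepsin S. For C1qb they were Itgb2 (0.10), C1qc (0.11) and C1qa (0.11), and for C1qc they were C1qb (0.11), Itgb2 (0.11) and C1qa (0.15). The C1q chains were therefore closer to each other and to Itgb2 than to the remaining 5 genes, among which C3ar1 was nearest, at 0.34 to 0.48. C3ar1 was closest to Hvcn1, which encodes a proton channel (0.14), Man2b1, a lysosomal mannosidase (0.15), and Sowahc (0.16). C4b was closest to Bst2 (0.23), C4a (0.23) and H2-L (0.27), and Serping1 to Cnn3 (0.12), Cdc14a (0.12) and Prelp (0.13). C3 and C5ar1 had no gene as near. For C3 the nearest were 2900052N01Rik (0.36), H2-Eb1 (0.40) and Mnda (0.41), and for C5ar1 they were Nuak2 (0.29), Ttf2 (0.30) and 5430427O19Rik (0.30). With a minimum of 20 CPM, 0 of the 3 genes named for C3 and C5ar1 and 1 of the 3 for C4b were the same.

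Over the 10 libraries the highest level was 11.3 times the lowest for C1qa, 8.48 times for C1qb and 7.91 times for C1qc, each between APP/PS1 replicate 4 and WT replicate 1. The same ratio was 8.58 for C4b and 7.00 for C3, also with APP/PS1 replicate 4 as the highest library. C5ar1 spanned 3.99 times, C3ar1 3.61 times and Serping1 2.20 times. Within groups, C4b and C5ar1 varied most in WT, with SDs of log2 CPM of 1.17 and 0.96, and C3 varied most in APP/PS1, at 0.97. For C3ar1 these SDs were 0.09 in WT, 0.08 in APP/PS1 and 0.28 with N-AS. The span of Serping1 lay between WT replicates 2 and 3.

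Promoters are shown because the C1q chains and C3ar1 rose together in the APP/PS1 libraries. RefSeq promoter sequences of build GRCm38.p6, running from 250 bases before to 50 bases after the start of the gene, were matched by symbol for 5 of the 8 genes, and those of C1qa, C4b and Serping1 were missing. The windows are chr4:136886151-136886450 for C1qb, chr4:136892865-136893164 for C1qc, chr17:57228087-57228386 for C3, chr6:122856108-122856407 for C3ar1 and chr7:16259289-16259588 for C5ar1, all on the minus strand and written 5′ to 3′ on that strand. The GENCODE models of C1qc and C5ar1 begin further upstream than the RefSeq starts, so that most of each of these windows lies inside the annotated gene. Capitals mark the motifs found, and the window of C1qb, which held 0 of the motifs named here, is not printed.
C1qc: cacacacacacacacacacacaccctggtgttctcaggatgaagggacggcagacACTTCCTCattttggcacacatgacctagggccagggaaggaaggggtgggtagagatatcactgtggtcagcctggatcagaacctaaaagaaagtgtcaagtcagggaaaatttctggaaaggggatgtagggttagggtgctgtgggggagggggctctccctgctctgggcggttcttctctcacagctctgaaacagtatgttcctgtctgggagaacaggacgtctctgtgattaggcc
C3: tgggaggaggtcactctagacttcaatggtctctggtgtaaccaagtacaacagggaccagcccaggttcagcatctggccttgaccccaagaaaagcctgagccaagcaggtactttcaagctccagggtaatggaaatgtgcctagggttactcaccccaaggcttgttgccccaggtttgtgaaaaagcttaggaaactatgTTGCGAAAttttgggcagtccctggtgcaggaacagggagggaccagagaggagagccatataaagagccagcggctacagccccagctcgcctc
C3ar1: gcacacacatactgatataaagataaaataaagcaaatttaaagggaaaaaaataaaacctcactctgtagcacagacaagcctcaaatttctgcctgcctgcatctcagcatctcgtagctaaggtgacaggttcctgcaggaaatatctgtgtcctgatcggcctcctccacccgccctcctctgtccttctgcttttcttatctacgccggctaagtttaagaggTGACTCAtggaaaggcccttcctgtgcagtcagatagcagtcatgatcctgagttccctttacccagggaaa
C5ar1: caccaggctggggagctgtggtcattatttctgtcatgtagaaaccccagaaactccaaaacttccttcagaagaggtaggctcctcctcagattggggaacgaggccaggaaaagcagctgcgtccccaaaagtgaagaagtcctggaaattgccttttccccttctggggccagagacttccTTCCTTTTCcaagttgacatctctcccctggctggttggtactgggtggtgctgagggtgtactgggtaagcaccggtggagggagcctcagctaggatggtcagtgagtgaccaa

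The following motifs of factors active in myeloid cells were searched on both strands of these windows, with N for any base. The core motif of PU.1, GAGGAAGT, was in 1 of the 5 windows, 195 bases before the start of C1qc (position −195, read as ACTTCCTC on the gene strand), and in 3.11% of all 32544 promoters of the same length. Its shorter form AGAGGAA, which overlaps the core in 6 letters, was in 0 of the 5 and in 10.5% of all promoters. The C/EBP motif TTGCNNAA was at position −45 of C3 and in 10.8% of all promoters, and the AP-1 motif TGANTCA was at −22 of C3ar1 and in 7.79%. The interferon-stimulated response element GAAANNGAA was at −66 of C5ar1, read as TTCCTTTTC, and in 8.53% of all promoters. This match in C5ar1 lies inside the GENCODE model of the gene. The NF-kB motif GGGANTTTC was in 0 of the 5 windows and in 1.12% of all promoters. A match describes these letters in the window only.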

How the data were processed

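The deposited values were raw read counts by gene symbol in each library, from TopHat alignments to mm10. The authors' processing notes also name edgeR, and the strand setting and annotation of the counting are not given in the sources used here. The FPKM values and quantile normalization of the study were not used. Each library was made from its own pool of mice, and reads were amplified without molecular identifiers, so intervals from counts cover counting error only. Lines sharing a symbol (103 lines, 43 symbols) were summed, and 0 lines had no symbol. Genes were filtered with filterByExpr, libraries scaled by TMM, and 18727 genes tested with edgeR 4.0.16 in R 4.3.3 (glmQLFit and glmQLFTest, 1 model of the 3 groups, all 10 libraries), with Benjamini-Hochberg adjustment and a threshold of 0.05. The code was tested on simulated data. Log2 CPM used a prior count of 2. Levels relative to markers were tested by exact two-sided permutation of the libraries.

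Groups and replicate numbers came from the sample titles. Libraries of the N-AS and APP/PS1 groups with the same number deviated together from their group means (r = 0.278, 0.142 and 0.309 across genes), but so did libraries of different numbers within numbers 1 to 6 (0.173 and 0.197) and within 7 to 10 (0.32), so the pairs cannot be told apart from these sets. Alternatives were DESeq2 1.42.0, limma 3.58.1 (voom, quantile normalization), total-count, upper-quartile and DESeq2 size factor scaling, other filters, the replicate block, the set of library numbers as a covariate or alone, a fit of the groups compared and each library left out. The 8 genes, the complement list and the marker lists were chosen with earlier results of these data known. Named from the complement list were C4a, genes called in any comparison and most of those at 20 CPM or more on average; for each of the 8 genes, 3 genes of similar pattern were named. Cfp, C6, C8a and Colec10 were named, and Csmd1, Csmd2 and Sez6l2 singled out among the latter, after their values were seen. Some of the genes and motifs looked at are not reported here.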

Additional observations from a re-analysis of the deposited data

How the results depend on the processing

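C1qa, C1qb, C1qc and C3ar1 kept an adjusted p under 0.05 for APP/PS1 against WT in all 21 alternatives with a test, with log2 fold changes of 2.32 to 2.85, 2.24 to 2.62, 2.11 to 2.53 and 1.62 to 1.78 and adjusted p up to 0.0196. C3 kept it in 9 of 21 (adjusted p from 0.000308 to 0.142), and C3ar1 for N-AS against WT in 15 of 21 (1.57e-08 to 0.229). The count of genes called for APP/PS1 against WT (649, of which 500 higher) was 1296 with DESeq2 (849 higher), 1055 with the library set as a covariate, 410 with only the compared groups and 299 to 923 with a library left out; library numbers 1 to 6 alone gave 937 (478 higher). For N-AS against APP/PS1 (0 genes, 0 members) it was 73 genes and 2 members with DESeq2, 11 genes in library numbers 1 to 6 and 0 to 1 with a library left out. For N-AS against WT (35 genes, 1 member) it was 180 and 4 with DESeq2, 20 genes with limma-voom, 64 and 3 with the library set, 2 and 0 with only the compared groups, 437 and 4 in library numbers 1 to 6, 1 to 116 and 0 to 4 with a library left out, and 2 members with no filter and with at least 10 counts in every library. No scaling alternative moved the median of all genes by over 0.1.

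With the replicate block, 326 genes passed for APP/PS1 against WT and 5 genes and 0 members for N-AS against WT. There, same-numbered libraries deviated together in some cases only (r = −0.485, 0.441 and −0.00962 with APP/PS1, −0.136, 0.348 and 0.24 with N-AS), so they share a number alone. The adjusted p with the block was 0.118 for C3 in the former and 0.0841 for C3ar1 in the latter; the block changed no other call of the 8 genes.

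No reversed direction passed the test where one was run. Serping1 in APP/PS1 against WT was at 0.055 with limma-voom, 0.059 with total counts, 0.0059 with upper-quartile scaling, 0.041 with the library set, −0.27 to 0.27 with a library left out and 0.91 in library numbers 7 to 10, without a test. For N-AS against APP/PS1, C4b was at 0.12 in library numbers 1 to 6, and Serping1 at −0.0066 with total counts, −0.076 to 0.12 with a library left out and −0.29 in library numbers 7 to 10, without a test. For N-AS against WT, C5ar1 was at −0.080 and Serping1 at −0.21 in library numbers 1 to 6, and with a library left out C3 was at −0.011 to 0.27, C5ar1 at −0.13 to 0.91 and Serping1 at −0.23 to 0.32. In the libraries of low Xist these 3 were at −0.019, −0.054 and −0.074, without a test. Relative to pan-myeloid markers, Serping1 had an exact permutation p of 0.0286 in place of 0.0571 in APP/PS1 against WT and for N-AS against APP/PS1, and C1qc one of 0.0571 in place of 0.0286 in the former. On that scale C3, C4b and C3ar1 were at −0.062, −0.41 and −0.010 in APP/PS1 against WT, C3ar1 and C5ar1 at 0.018 and 0.10 for N-AS against APP/PS1, and C4b at −0.15 for N-AS against WT. Relative to all markers with a library left out, C4b was at −0.74 to 0.52 and C5ar1 at −0.84 to 0.28 in APP/PS1 against WT, at −0.032 to 0.34 and −0.19 to 0.14 for N-AS against APP/PS1 and at −0.61 to 0.65 and −0.87 to 0.25 for N-AS against WT. The cause was not tested. The comparison within libraries of low Xist was chosen after seeing the data. The SE was largest for C3 (0.43 to 0.46 over the comparisons), C4b (0.42 to 0.45) and C5ar1 (0.40 to 0.43), and C3 and C5ar1 had the lowest counts in a library, 66 and 76.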
